A study of Mus musculus with 5 samples.

Results

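This is a description of the baseline transcriptome of haematopoietic stem cells (HSCs) from control mice, by abundance and by the spread between libraries. Members were the genes listed at 1 FPKM or more in all 3 control libraries, and 8378 of the 11643 genes of the deposited table met that minimum (72.0%). FPKM is the number of sequenced fragments scaled by transcript length and by library size. The cells came from the bone marrow of C57BL/6 mice and were sorted by their surface proteins, keeping those with c-Kit, Sca-1 and CD150 and without CD48 or lineage markers. The labels give the genotype of these 3 libraries only as control, with the sample tags VavC1, VavC2 and VavC3, and they state no age, no sex, no allele and no Cre status. They also do not say whether the replicates were separate animals, so the spread between libraries may be technical. The other 2 libraries of the series, from mice deficient in Tle1, Tle3 and Tle4, were not used. Values by library are given throughout in the order of control replicates 1, 2 and 3.

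An HSC sits at the top of blood formation, divides rarely and keeps a low rate of protein synthesis compared with its progeny. It is defined by a small set of surface receptors and by transcription factors shared with the earliest megakaryocyte and erythroid cells. Most RNA in any such cell nonetheless encodes the machinery that all cells share, such as ribosomes, mitochondria and the cytoskeleton. In sorted bulk RNA, a lower share of cells of some type and less RNA per cell cannot be told apart.

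The genes behind the sort were present in every control library. Kit, the stem cell factor receptor, was listed at 165, 185 and 149 FPKM (166 ± 18.2, SD, n = 3) and ranked 552 of 8378. The CD150 gene, Slamf1, stood at 14.9, 24.0 and 21.1 FPKM and ranked 4282. Ly6a, which encodes Sca-1, was at 57.8, 96.3 and 199 FPKM, so that replicate 3 stood above the other two. Procr, the endothelial protein C receptor of HSCs, was at 34.5, 56.0 and 75.0 FPKM. Cd48, which the sort selected against, was listed at 3.22, 4.63 and 13.0 FPKM and ranked 7262, low in replicates 1 and 2 and highest in replicate 3.

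Among the most abundant genes, several ribosomal ones begin transcription with a C followed by at least 4 further C or T letters, the start that defines terminal oligopyrimidine (TOP) messages, whose translation follows nutrient signalling. The windows below hold 50 bases before the annotated start and 10 after it, 5′ to 3′ on the gene's own strand, from RefSeq's GRCm38.p6 promoters, with the start run in capitals. They are shown because, at 1000 FPKM or more, 10 of 59 genes with a promoter held the run, and all 10 were ribosomal. The 21 non-ribosomal ones held none. Over all members the share was 2.95%, and 21 genes are too few to be told apart from that share.
Rpl35 (GRCm38.p6, chr2:39005122-39005181, minus strand): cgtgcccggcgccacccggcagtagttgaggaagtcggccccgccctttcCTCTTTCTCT
Rps18 (GRCm38.p6, chr17:33955656-33955715, minus strand): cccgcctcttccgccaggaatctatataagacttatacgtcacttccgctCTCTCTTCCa
Rpl38 (GRCm38.p6, chr11:114668530-114668589, plus strand): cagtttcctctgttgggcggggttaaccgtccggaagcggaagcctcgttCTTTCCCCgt
Fau (GRCm38.p6, chr19:6057897-6057956, plus strand): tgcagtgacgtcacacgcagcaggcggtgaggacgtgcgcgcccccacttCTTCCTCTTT
Rps10 (GRCm38.p6, chr17:27635235-27635294, minus strand): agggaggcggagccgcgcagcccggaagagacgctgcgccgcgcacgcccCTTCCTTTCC
Rps28 (GRCm38.p6, chr17:33824553-33824612, minus strand): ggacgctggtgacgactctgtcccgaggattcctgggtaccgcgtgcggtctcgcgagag
Ppia (GRCm38.p6, chr11:6415817-6415876, plus strand): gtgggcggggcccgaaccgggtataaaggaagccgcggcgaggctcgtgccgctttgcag
B2m (GRCm38.p6, chr2:122147637-122147696, plus strand): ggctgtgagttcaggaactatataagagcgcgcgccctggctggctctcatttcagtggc
The first 5 windows hold the run and the last 3, for contrast, hold none at the annotated start, although their genes rank 1, 5 and 7. RefSeq starts are single annotated positions that can differ from the start used in HSCs, so a gene without the run at this position may still carry it a few bases away.

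Levels of the members spanned a typical level of 1.17 to 12465 FPKM with a median of 20.3 FPKM, where the typical level is the mean of log2(FPKM + 1) over the 3 libraries turned back to FPKM. The top class, at 1000 FPKM or more, held 73 genes, or 0.871% of the members. These few genes took 27.8%, 29.9% and 31.5% of all listed FPKM in replicates 1, 2 and 3. The class of 100 to 1000 FPKM held 897 genes and took 34.9% ± 0.695 (SD, n = 3). The class of 10 to 100 FPKM was the widest, with 5202 genes and 28.3% ± 1.75 of the FPKM. The 2206 members under 10 FPKM together took 2.29% ± 0.133. The 100 top-ranked genes alone took 33.5% ± 2.06 of all listed FPKM, and the 1000 top-ranked genes 65.1% ± 1.13.

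**Figure D1:**
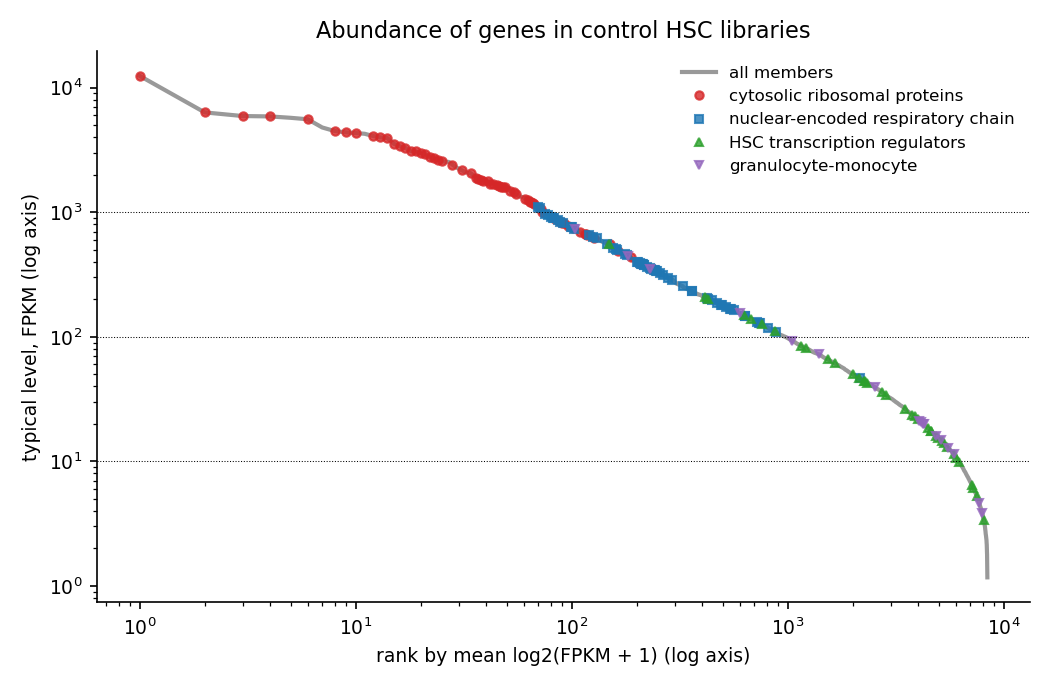
Typical level in FPKM (log axis) against rank (log axis) for the 8378 members, with dotted lines at the class limits of 10, 100 and 1000 FPKM. Red circles, cytosolic ribosomal protein genes, fill most of the left end, and green triangles, HSC transcription regulators, start near rank 148 and reach down to 3.37 FPKM.

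Cytosolic ribosomal protein genes dominated the top, holding 55 of the 100 top-ranked places and 48 of the 73 places at 1000 FPKM or more. All 66 that were members stood at 100 FPKM or more, a level that 11.6% of all members reached. The highest-ranked gene was Rps28, a small-subunit protein, at 11848, 16341 and 10004 FPKM. Rpl13 of the large subunit followed at 6457, 6350.2 and 6214 FPKM. The 3 libraries differed little in it, with an SD of log2(FPKM + 1) of 0.028. The median SD was 0.43 over all members and 0.18 over those at 1000 FPKM or more. Rps29 stood at 4305, 6728 and 7185 FPKM and Rpl36 at 4653, 5395 and 8126 FPKM, both lowest in replicate 1. Of the top 30 genes, 23 were ribosomal. Large differences between libraries occurred even there, as in Rpl37a at 6480.4, 2901 and 3266 FPKM, Rpl4 at 3064, 4875 and 1982 and Rps6 at 3069.8, 1779.7 and 3664. Steadier were Rps26 at 3864, 4627 and 5058 FPKM, Rps20 at 2714, 2739.7 and 3373 and Rplp0, of the ribosomal stalk, at 2701, 3174 and 3109. The messages of ribosomal proteins were not at equal levels per length. The 36 large-subunit members ranged from 204 to 6339.5 FPKM with a median of 1342, and the 29 small-subunit members from 440.0 to 12465 FPKM with a median of 1845. The lowest, Rpl22, was at 147, 245 and 237 FPKM. Ribosomal genes have many near-identical pseudogenes, so how the authors' counting split such reads makes single levels uncertain. Of the 71 ribosomal genes in the table, 5 were not members because each was listed at 0 in at least 1 library.

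Of the ribosomal members, 53 had a RefSeq promoter, and 12 of these (22.6%) carried the C-plus-pyrimidine run exactly at the annotated start. Over all 27025 genes of the promoter table the share was 3.01%, and over members it was 2.95%. At 1000 FPKM or more it was 16.9% (10 of 59 genes), and 0 of the 21 non-ribosomal genes of that class carried it. Promoter letters were otherwise searched over the whole window of 250 bases before and 50 after the start, on both strands. Of promoters at 1000 FPKM or more 20.3% held TATAAA, against 7.79% of members and 15.7% of all genes of the promoter table. TGACGTCA, the binding letters of the CREB family, was in 10.2%, 3.70% and 2.03% of these same sets, and CCGGAAG, which ETS factors bind, in 35.6%, 23.2% and 9.93%. GGGCGG, a GC-box, was in 62.7%, 70.4% and 38.2%, and CCAAT in 42.4%, 43.5% and 41.1%. TATAAA was in 33.3% of the 21 non-ribosomal promoters of the top class and in 13.2% of those of the 53 ribosomal members. Over the genes of the deposited table the shares were near those of the members. They were 8.66% for TATAAA, 3.60% for TGACGTCA, 20.4% for CCGGAAG, 68.6% for GGGCGG and 43.0% for CCAAT. The members' promoters had a median of 21 CpG per window, against 20 over the genes of the deposited table and 7 over the promoter table. This median differed little between the classes (21 to 22). A match describes letters in a window and not a bound site.

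Transcript length fell with abundance class. The median over GENCODE M21 transcripts was 778 bases at 1000 FPKM or more, 1334 bases at 100 to 1000 FPKM, 2547 bases at 10 to 100 FPKM and 3556 bases under 10 FPKM. The median number of exons was 5, 6, 9 and 10 in the same order. FPKM divides by length, so a short message needs fewer fragments to reach a given value, and the part of this in the ranking was not tested.

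Outside the ribosome, the top places went to families of translation, protein folding, cytoskeleton, antigen presentation and iron storage. Ppia, the peptidyl-prolyl isomerase cyclophilin A, was at 5245, 5857 and 6143 FPKM. B2m, the light chain of MHC class I, was at 4088, 3813 and 7081 FPKM and stood highest in replicate 3, while H2-K1, a class I heavy chain, was even across libraries at 2262, 2059 and 2015 FPKM. Eef1a1, which brings aminoacyl-tRNA to the ribosome, was at 3874, 4373 and 4598 FPKM, and Eif5a, an elongation factor that carries hypusine, at 1594, 1485 and 1335 FPKM. Of 25 translation-factor members, 24 reached 100 FPKM.

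The list of actin cytoskeleton genes and thymosins, which also holds tubulins, Stmn1 and Vim, was abundant. Of its 31 members 27 stood at 100 FPKM or more, and the median SD was 0.17. Actb was at 2372, 2644 and 2646 FPKM, the actin-binding protein Pfn1 at 2789, 2592 and 2257 and Tmsb4x, which sequesters actin monomers, at 2191, 2119 and 1937. Cfl1, which severs filaments, was at 1934, 2177 and 1855 FPKM. Members of the same list that did vary were Tuba1a (SD 0.996), Gmfg (SD 0.829) and Myl10 (SD 0.767). Myl10, a regulatory myosin light chain, was at 614, 416 and 214 FPKM. Its replicate 1 and replicate 3 were 2.87-fold apart.

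Ferritin light and heavy chains, which store iron, were at 2663, 2120.5 and 2193 FPKM (Ftl1) and 1567, 1716 and 1783 FPKM (Fth1), and the peroxide-reducing enzyme Gpx1 was at 1221, 1446 and 1288 FPKM. Among chromatin genes Ptma, prothymosin alpha, led at 2345, 2035 and 2337 FPKM, followed by the histone variants H2afz at 1506, 1389 and 1251 and H3f3b at 1406, 1124 and 1519.97. Of the IFITM family of antiviral membrane proteins, Ifitm1 was at 1128, 1316 and 2679 FPKM, high in replicate 3 alone. Ifitm2 was at 1421, 1205 and 1423 and Ifitm3 at 1221, 1144 and 1646 FPKM. Ifitm6 was far lower, at 0.401, 9.59 and 14.7 FPKM, and not a member. Of the 22 members on the list of IFITM and interferon-stimulated genes, 6 reached 100 FPKM, against 11.6% of all members, and the median was 40.8 FPKM. Of these 22, 14 were highest in replicate 3, 5 in replicate 1 and 3 in replicate 2. Over all members, 27.0% were highest in replicate 3. Isg15, a ubiquitin-like protein, was at 27.3, 5.85 and 29.9 FPKM and low in replicate 2 alone.

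Only 5 of the 100 top-ranked genes were on none of the 26 gene lists. They were Mif, a cytokine, at 1531, 1639 and 1581 FPKM, Cnbp, a nucleic acid-binding zinc-finger protein, at 1332, 847 and 863 FPKM, the phosphatase Ptpn18 at 963, 1041 and 691 FPKM, the LIM protein Crip1 at 691, 987 and 744 FPKM and Rsrp1 at 778, 705 and 829 FPKM. Among non-coding RNAs, Malat1 was at 504, 318 and 270.05 FPKM and Snhg20, a snoRNA host, at 189, 209 and 223 FPKM. By GENCODE type, 8258 members were protein-coding genes.

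**Figure D2:**
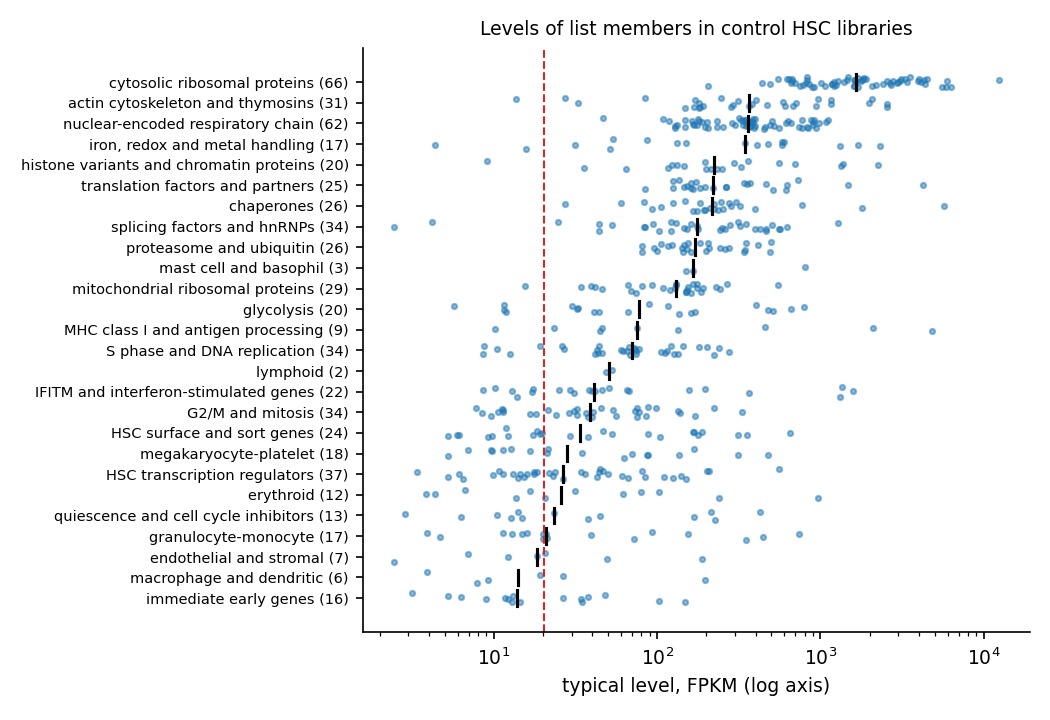
Typical level in FPKM (log axis) of each member of the 26 gene lists, with the number of members in parentheses and a black bar at each list's median. The red dashed line is the median of all members, 20.3 FPKM, and the ribosomal list stands farthest right with a median of 1639 FPKM.

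Nuclear-encoded subunits of the respiratory chain, which make ATP in mitochondria, formed the next family, with 12 of the 100 top-ranked places and 61 of 62 members at 100 FPKM or more. Their median was 359 FPKM. Complex IV members stood highest with a median of 767 FPKM (10 genes) and the smallest spread between libraries (median SD 0.12). The ATP synthase members had a median of 504 FPKM (15 genes), complex III 383 (7 genes), complex I 316 (25 genes) and complex II 163 (4 genes). Cox4i1 was at 936, 1267 and 1135 FPKM, Cox8a at 1037, 1109 and 1084 and Atp5e, a small ATP synthase subunit, at 1008, 825 and 1119. The lowest member was Cycs, the soluble electron carrier cytochrome c, at 52.1, 47.0 and 40.8 FPKM. Mitochondrial ribosomal proteins were lower, with 19 of 29 members at 100 FPKM or more and a median of 131 FPKM. Mrpl52 led that list at 600.4, 543 and 512 FPKM, with Mrps21 at 257, 290.02 and 258 and Mrpl33 at 162, 257 and 345.

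Glycolytic genes had a median of 77.5 FPKM, with 9 of 20 members at 100 FPKM or more. Gapdh was at 742, 703 and 940.2 FPKM, Ldha, the muscle-type lactate dehydrogenase chain, at 661, 685 and 629 and Pkm, pyruvate kinase, at 555, 498 and 476. Genes of glucose uptake and phosphorylation were lower, with hexokinase 1 (Hk1) at 87.8, 109 and 72.5 FPKM, hexokinase 2 (Hk2) at 11.6, 5.95 and 2.46 and the glucose transporter Slc2a1 at 36.1, 28.8 and 33.8. Pyruvate dehydrogenase kinases, which inhibit pyruvate dehydrogenase in the mitochondrial matrix, differed in their spread. Pdk3 was at 68.5, 76.5 and 55.7 FPKM in the 3 libraries and Pdk1 at 50.8, 87.2 and 19.1.

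Proteasome genes had a median SD of 0.18 over 26 members and none above 0.46. Of these 26, 22 stood at 100 to 1000 FPKM, a class in which the median SD of all members was 0.24. The proteasome median was 0.12 without replicate 1, 0.14 without replicate 2 and 0.13 without replicate 3. Over all members these values were 0.32, 0.34 and 0.39. An SD over 2 libraries runs lower than one over 3 for the same spread, so these are not compared with 0.18. Psma7 was at 516, 504 and 475 FPKM, Psme1, an activator subunit, at 359, 610.3 and 537 and Psmb8 at 402, 453 and 391. The 3 immunoproteasome subunits, which replace the standard catalytic ones in blood cells, had a median of 345 FPKM, and the 5 other beta-ring members 244 FPKM. Chaperones and splicing factors had medians of 216 and 176 FPKM. Hspa8, the constitutive heat shock protein, was at 1771, 1811 and 1791 FPKM and Hsp90ab1 at 749.6, 729 and 841 FPKM. The stress-induced pair was near 0, with Hspa1a at 0, 0.0226 and 1.32 and Hspa1b at 0, 0.0225 and 0 FPKM, so neither was a member. Snrpg, an Sm-ring protein of the spliceosome, was at 1114, 1255 and 1520.1 FPKM, Snrpb at 603, 712 and 558 and Snrpd2 at 599, 581 and 521.

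HSC regulators lay in the middle of the range. Of 42 listed transcription regulators, 37 were members, against 72.0% of all genes of the table. The 37 had a median of 26.3 FPKM, and 7 of them reached 100 FPKM, against 11.6% of all members. Lmo2, a bridging protein of the haematopoietic transcription factor complex, was the highest at 484, 653 and 542 FPKM. Myc, which drives growth, was at 211, 314 and 135 FPKM and uneven between libraries, and Lyl1, a basic helix-loop-helix partner of Lmo2, was at 244, 209.6 and 162 FPKM. Gata2 was at 171, 169.6 and 114 and Meis1, a HOX cofactor, at 191, 104 and 138 FPKM. The HSC-restricted factor Hlf was at 24.9, 19.4 and 25.1 FPKM, Hoxa9 at 44.0, 52.3 and 38.2, Mecom at 8.36, 8.57 and 13.3 and Prdm16 at 17.3, 18.2 and 11.4. These 4 ranked 3856, 2241, 6205 and 4966 of 8378, below every ribosomal member and below all 62 respiratory members. Hlf and Hoxa9 stood above the member median of 20.3 FPKM, and Mecom and Prdm16 below it. The 5 regulators outside the members were Gfi1, Hoxa5, Hoxa7, Hoxb4 and Pbx3. Hoxb4 was at 2.09, 0.755 and 1.71 FPKM, and Hoxa5, listed at 0 in replicate 3, at 7.99, 8.95 and 0.

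Genes of the HSC surface had a median of 33.5 FPKM. Adgrg1, the adhesion receptor also called Gpr56, was at 677, 661 and 617 FPKM and ranked 121, and Cd47, which signals against phagocytosis, was at 391, 334 and 348 FPKM. Both were even across libraries, with SDs of 0.07 and 0.12. Of 24 members on this list 8 reached 100 FPKM, against 11.6% of all members. Tek, the angiopoietin receptor, was at 11.4, 14.4 and 11.1 FPKM and Vwf, von Willebrand factor, at 10.2, 14.7 and 6.20. Esam, an HSC and endothelial adhesion molecule, was at 74.0, 103 and 0 FPKM and so fell outside the members through 1 library listed at 0.

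Genes of cell division were measurable in these libraries. All 34 S phase genes in the table were members, with a median of 70.4 FPKM, and so were all 34 G2/M genes, with a median of 39.0 FPKM. Of all genes of the table, 72.0% were members. Mcm6, a subunit of the replicative helicase, was at 244, 282 and 301 FPKM, Rfc2 of the clamp loader at 330.2, 203 and 208 and Pcna, the sliding clamp, at 171, 249 and 256. Cks1b and Cks2, partners of cyclin-dependent kinases, were at 379, 321 and 303 and 192, 214 and 274 FPKM, and Bub3, of the spindle checkpoint, at 129.9, 239.99 and 159 FPKM. Mki67, the proliferation antigen, was at 5.84, 10.1 and 10.2 FPKM. Txnip, a thioredoxin-binding protein, was at 198, 231 and 254 FPKM. Of regulators of the G1 step, Cdk4 was at 393, 446 and 439.6 FPKM and Ccnd3, a D-type cyclin, at 232, 215 and 192. Ccnd2 was at 492, 103 and 92.2 FPKM, so that replicate 1 stood far above the others. Cdkn1c, the inhibitor associated with HSC quiescence, was at 44.0, 41.5 and 48.2 FPKM and even across libraries, and Cdkn1a was at 0.0382, 5.09 and 3.46 FPKM and not a member.

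The spread between libraries narrowed with level. The median SD of log2(FPKM + 1) was 0.18 at 1000 FPKM or more, 0.24 at 100 to 1000 FPKM, 0.42 at 10 to 100 FPKM and 0.59 under 10 FPKM. An SD above 1 was found in 720 members (8.59%), of which 324 lay under 10 FPKM and 0 at 1000 FPKM or more. In 957 members (11.4%) the highest library was at least 4 times the lowest, and in 2495 members (29.8%) it was less than 1.5 times the lowest. The members were chosen by a minimum in every library, which leaves out genes that dropped in 1 library, so these spreads understate those of the whole table. No test was made within the 1 group, and an SD over 3 values is itself imprecise.

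**Figure D3:**
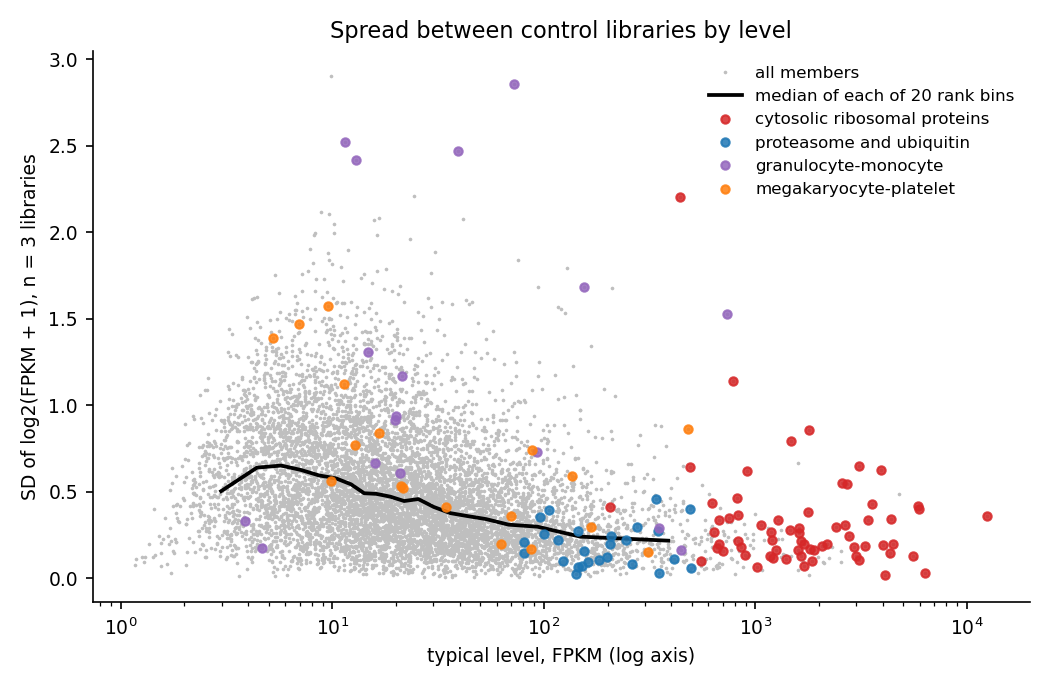
SD of log2(FPKM + 1) over the 3 control libraries against typical level (FPKM, log axis) for all members in grey, with the median of each of 20 rank bins as a black line. The granulocyte-monocyte genes in purple include Camp at 2.86, Lcn2 at 2.52 and Ngp at 2.47, while the proteasome genes in blue stay at 0.46 or below.

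The genes that varied least among members at 10 FPKM or more were of mixed function. The autophagy protein Wipi2 was at 36.5, 36.9 and 36.8 FPKM. Hnrnph2, an RNA-binding protein, was at 46.9, 46.4 and 46.6 FPKM, Mettl2, a tRNA methyltransferase, at 27.4, 27.3 and 27.1, Mrpl15 at 34.5, 34.1 and 34.0 and Med28, a Mediator subunit, at 31.8, 32.1 and 31.7. Mdh1, cytosolic malate dehydrogenase, was at 164, 163 and 166 FPKM. Hspa8, Rps19 at 4073, 4071 and 4162 FPKM and the mitotic kinase Cdk1 at 36.4, 37.2 and 37.1 FPKM were also among the 15 least variable, with Bccip, Dcaf13, Traf3ip3, Naa35 and Pus1. Of the 100 least variable genes, 14, 12 and 19 kept that place without replicate 1, 2 or 3.

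At the other end, granulocyte genes led. Camp, the cathelicidin of neutrophil granules, was at 7.13, 379 and 126 FPKM (SD of log2(FPKM + 1) 2.86), Lcn2, the siderophore-binding lipocalin, at 1.02, 65.1 and 13.4 FPKM and Ngp, a neutrophil granule protein, at 4.66, 87.4 and 129.6 FPKM. Elane, neutrophil elastase, was at 1.013, 35.0 and 36.2 FPKM. In all 4, replicate 1 was the lowest library, and there Lcn2 and Elane stood just above the minimum of 1 FPKM. Just under 10 FPKM lay the member of highest SD, Prg2, the eosinophil major basic protein, at 1.46, 3.89 and 107 FPKM (SD 2.90), high in replicate 3 alone.

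The other most variable genes were of varied function. Rps15a was at 74.7, 1054 and 1072 FPKM, low in replicate 1 alone, and Gata1, the erythroid and megakaryocyte factor, at 41.6, 37.4 and 2.33 FPKM, low in replicate 3 alone. The small GTPase Rit1 was at 121, 4.77 and 21.8 FPKM, the selenocysteine elongation factor Eefsec at 69.8, 7.31 and 127, the replication factor Gins3 at 66.5, 2.86 and 16.9 and the polarity protein Pard3b at 2.74, 54.8 and 5.77. The kinases Uhmk1 and Camk2g were at 1.28, 25.3 and 22.5 and 40.4, 2.54 and 34.1 FPKM, and Nfat5, the osmotic stress factor, at 5.96, 18.8 and 102 FPKM. 4833418N02Rik and Cdk5rap1 completed the 15, at 25.4, 27.3 and 1.81 and 6.13, 53.7 and 80.6 FPKM. At 100 FPKM or more, where 17 members had an SD above 1, the splicing factor Sf3b1 was at 407, 84.5 and 50.7 FPKM, Acat1 at 431, 66.7 and 68.6 and the ubiquitin ligase subunit Rbx1 at 101, 805 and 114.

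**Figure D4:**
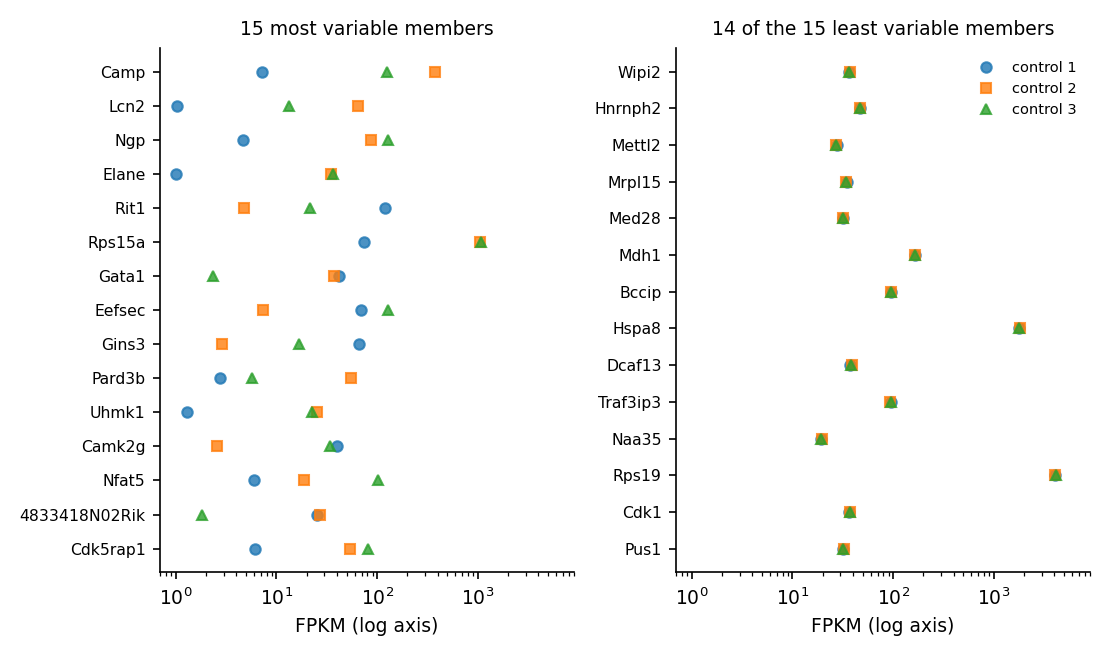
FPKM (log axis) in each of the 3 control libraries for the 15 most variable (left) and 14 of the 15 least variable (right) members at 10 FPKM or more, with a marker for each library. Control replicate 1 (blue circles) is lowest in the 4 granulocyte genes at the top left, and the 3 markers of each gene overlap on the right.

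Marker lists of other cell types differed in level between the control libraries. On the granulocyte-monocyte list, 17 of 31 genes in the table were members, against 72.0% of all genes of the table. Their median SD was 0.94 against 0.43 for all members. Of the 17, 8 had an SD above 1, against 8.59% of all members, and 10 were lowest in replicate 1, against 33.0% of all members. The 31 genes summed to 1238, 3612 and 2943 FPKM, and to 970, 1236 and 1462 FPKM without S100a8, S100a9 and Camp. S100a8, a neutrophil alarmin, was at 222, 1657 and 1086 FPKM and its partner S100a9 at 39.7, 339 and 269. Lyz2, lysozyme, was closer between libraries, at 431, 409 and 508 FPKM, as was the protease Prtn3, at 280.5, 377 and 411. The 4 members highest in replicate 1 were Fcer1g, an Fc receptor chain, at 132, 51.6 and 118 FPKM, Csf3r, the G-CSF receptor, at 30.3, 8.91 and 28.9, the integrin Itgb2 at 27.2, 10.7 and 13.5 and the protease Mmp9 at 5.29, 4.77 and 3.97. Without replicate 1 the list's median SD was 0.44, against 0.32 for all members. Of the 31, 14 were not members, among them the monocyte receptor Csf1r at 0.0177, 0.0320 and 0.0241 FPKM and the granule protease Ctsg at 0.0825, 0.294 and 0.168. The part of myeloid RNA in the variable genes was not tested.

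Megakaryocyte and platelet genes leaned the other way. The 24 genes in the table summed to 2221, 1650 and 1174 FPKM, and 12 of its 18 members were highest in replicate 1 while 10 were lowest in replicate 3. Over all members, 38.6% were highest in replicate 1 and 33.5% lowest in replicate 3. Pf4, a platelet granule chemokine, was at 839, 512 and 255 FPKM, and Itga2b, the integrin CD41, at 131, 105 and 48.9 FPKM. Cd9, which HSCs also express, was at 203, 172 and 135 FPKM. Gp9, of the von Willebrand factor receptor, went against this, at 53.9, 65.0 and 70.8 FPKM. Both counts were within 1 gene of these values when the columns were scaled by median of ratios or to an equal sum.

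Ribosomal protein genes were mostly lowest in replicate 1. Of 66 members, 53 were lowest in replicate 1 and 47 highest in replicate 3, where 2768 and 2263 of all 8378 members were. After scaling to an equal sum these counts were 48 and 45. The 66 members held 21.4%, 24.1% and 25.5% of the FPKM of the 3 libraries. Relative depth, estimated from the low values, was 1.11 for replicate 2 and 1.47 for replicate 3 with replicate 1 as 1. The part of depth in these differences was not tested.

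On the erythroid list, 12 of 21 genes in the table were members. The share over the whole table, for this list and those below, was 72.0%. Car2, a carbonic anhydrase, was at 1076, 1069 and 792 FPKM and Nfe2 at 269.9, 224 and 222, with the haem enzyme Urod at 115, 83.5 and 113. Klf1, a factor of committed erythroid cells, was at 3.19, 3.21 and 5.42 FPKM. Of 30 lymphoid genes 8 were in the table and 2 were members, Nkg7 at 41.2, 105 and 34.0 FPKM and Cd79b at 59.5, 42.6 and 44.9. The mast cell list had 3 members, Srgn, a proteoglycan core protein at 812, 797 and 786 FPKM, and the HSC genes Kit and Gata2, while Cpa3 was at 0, 0 and 2.03 FPKM. Of 20 endothelial and stromal genes in the table, 7 were members, led by Eng at 173, 237 and 166 FPKM, Tie1 at 34.3, 69.7 and 49.2 and Pecam1 at 21.5, 22.5 and 18.4. Kdr, the endothelial growth factor receptor, was at 0.0124, 0 and 0 FPKM. The dendritic and macrophage list had 6 members of 18, with Bst2 at 192, 185 and 216, Tcf4 at 8.18, 34.1 and 62.8 and Flt3 at 20.1, 13.9 and 24.8 FPKM, and Cd14 listed at 0 in all 3 libraries. Immediate early genes, which rise soon after a cell is stimulated, had a median of 13.8 FPKM over 16 members. Ier2 was at 181, 139.6 and 127 FPKM, Dusp2 at 98.2, 114 and 96.0 and Junb at 50.8, 45.6 and 46.9, whereas Fos was at 8.08, 0.342 and 17.4 FPKM and not a member.

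**Figure D5:**
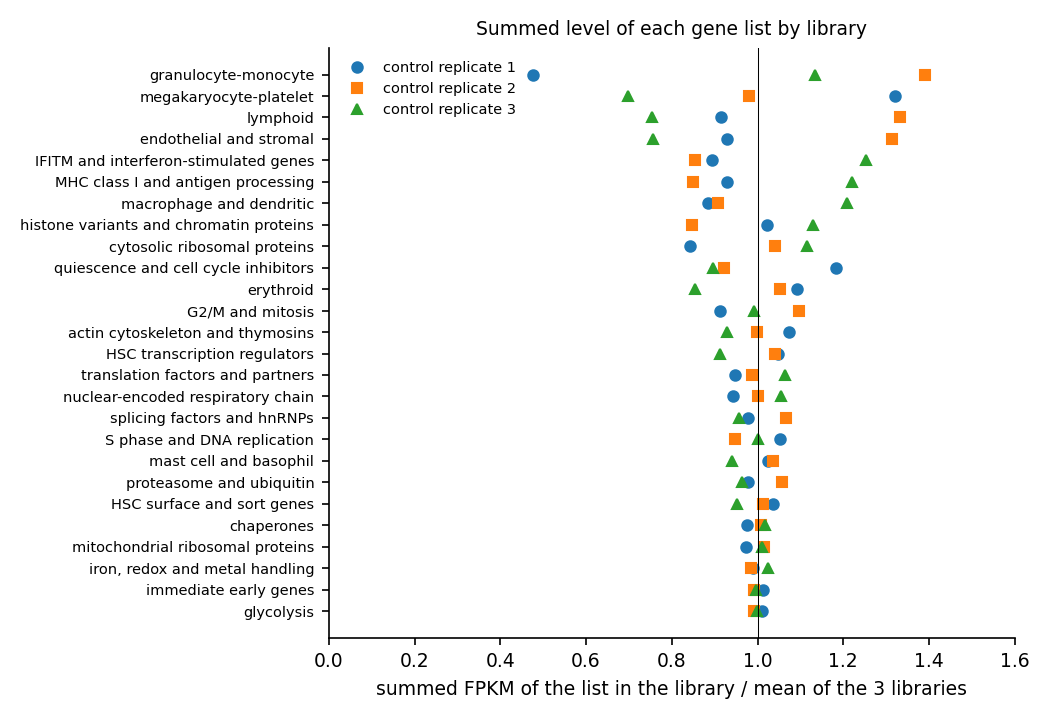
Summed FPKM of each gene list in a library divided by the mean of the 3 libraries, 1 marker per library, with lists ordered by their spread. The granulocyte-monocyte list spreads most, with replicate 1 lowest, and the megakaryocyte-platelet list has replicate 1 highest and replicate 3 lowest.

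The minimum of 1 FPKM left out 3265 genes, of which 1530 met it in 2 controls, 1014 in 1 and 721 in 0. Just inside were Coro2b at 1.001, 11.7 and 5.97 FPKM and Fsd1l at 1.34, 1.21 and 1.006, with Nrap at 1.63, 4.71 and 1.008 and Tslp at 9.02, 1.008 and 6.55. Just outside were Atp8b2 at 12.9, 5.53 and 0.995 FPKM and Cd59b at 2.80, 0.992 and 2.46, with Ubxn2b at 8.79, 28.2 and 0.988 and Rassf6 at 12.1, 4.52 and 0.987. Not all excluded genes were low. In 24 genes 2 controls stood at 100 FPKM or more and the remaining 1 was listed at exactly 0, in replicate 1 for 4 genes, in replicate 2 for 6 and in replicate 3 for 14. Rpl41 was at 0, 7058 and 7732 FPKM, Rpl32 at 6237, 7199 and 0 and Hmgn2, a nucleosome-binding protein, at 1634, 0 and 2893. Rpl12 was at 725, 1179 and 0 and the helicase Eif4a1 at 678, 0 and 533 FPKM. The actin-binding Coro1a was at 572, 511 and 0 FPKM, Bola2 at 306, 527 and 0, the tetraspanin Cd81 at 383, 0 and 394 and Fxyd5 at 363, 326 and 0. The ribosomal genes Rpl41, Rpl32 and Rpl12 were thus each listed at 0 in 1 library, and whether such a 0 is a failed estimate was not tested. Of these 24 genes 18 (75.0%) overlap another gene in GENCODE M21, against 54.1% of the genes of the table, and the part of overlap in the zeros was not tested. Among the 186 genes with 2 controls at 10 FPKM or more and 1 at 0, the share was 68.3%. Among members at 10 FPKM or more, it was 47.0% in the 100 most variable and 49.0% in the 100 least variable. The ranking at the top is therefore missing some genes that stood very high in 2 controls.

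Across members, replicates 1 and 2 were the least alike pair. Spearman correlations over the 8378 genes, which are not independent replicates, were 0.826 for replicates 1 and 2, 0.865 for 1 and 3, and 0.872 for 2 and 3. Summed FPKM was 616738, 642481 and 650087. Replicate 3 was the deepest by the estimate above and had the fewest genes listed at 0 (656, against 1438 and 1221). It also stood alone least often, with 227 members at 2 or more times both other libraries, against 480 and 401. Xist, expressed from the inactive X chromosome, was at 32.1, 30.02 and 39.5 FPKM, and the Y-linked Ddx3y at 0.0438, 0.0132 and 0.0200 FPKM, so the 3 libraries were alike in both.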

How the data were processed

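RNA-seq of sorted bone marrow HSCs was deposited by the authors as 1 table of FPKM by gene symbol. Per the submitters' processing notes the build was mm9 and the tools TopHat and edgeR, with no version or role. For the annotation, filters and FPKM program, versions and settings were not given in the sources used here. Symbols carry no coordinates, so gene positions are not given, and the start windows are on RefSeq's GRCm38.p6.

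Groups came from the sample titles, and only the 3 control columns were used. Members had at least 1 FPKM in each, and were ranked by mean log2(FPKM + 1). No comparison between groups and no test was made. The depth of each library is unknown, since the table holds no counts. Relative depth is the commonest ratio between libraries of values under 0.3 FPKM, within 0.5%, a ratio that 31 of 124, 12 of 53 and 20 of 67 low genes shared. Gene lists (26, with 814 genes, 702 of them in the table) were written from general knowledge. The members and lists were chosen with earlier results of these data known. Named by rule are the 30 top-ranked genes, the 3 highest of each list, the 15 most and least variable members at 10 FPKM or more, the zeros of 1 library and the genes at the minimum. Others were chosen after their values were seen; the rest of the top 30 are given by count. A few genes that meet it are not reported here. Symbols matched GENCODE M21 for 99.6% of the table and RefSeq promoters for 80.9%, synonyms included. Where a gene had several annotated starts, a motif counted if any window held it. Functions were tested on simulated data. Python 3.11.15, pandas 2.3.3 and matplotlib 3.10.9 were used. Alternatives covered scaling, pseudocount, minimum and leaving out each library.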

Additional observations from a re-analysis of the deposited data

How the results depend on the processing

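Of the recomputed summary values, 57 stayed within 1.5 times the reported count or within the spread between libraries and 11 did not. With each column rescaled to the same sum of 1000000, 123 genes stood at 1000 FPKM or more and 1583 at 100 FPKM or more, since the deposited columns sum to less. Replacing the minimum in every control by a mean of 1 FPKM gave a median SD of 0.533 with 2426 genes above 1, and no minimum gave 0.523 with 2499. Leaving out 1 control at a time, the top 100 genes held 33.49% to 35.75% of the FPKM and the median SD was 0.329 to 0.387. An SD over 2 libraries runs lower than one over 3, so these median SDs, counted among the 11, were lower in part by construction. With 1 control left out, 761 to 1138 members had an SD above 1, the highest without replicate 3. The median SD of granulocyte-monocyte members, added after seeing the data, was 0.438 to 1.17, and that of ribosomal members 0.123 to 0.264, both lowest without replicate 1. The top 100 genes shared 95 to 100 places with the reported ranking under every alternative run. Rankings by variability were less stable, since 33 to 53 of the 100 most variable members kept that place when a library was left out, 50 by the CV of FPKM and 49 against members of like level, and 6 with a mean of 1 FPKM as the minimum or with none. With each column rescaled to the same sum, 57 of the 100 most variable and 56 of the 100 least variable kept their place. With median-of-ratios scaling 94 and 72 did. No paired analysis was possible because only 1 group was described and the results come from no test. Absolute depth is unknown, so the error of low values is not known.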
